A study of Mus musculus with 4 samples.

Results

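The cells described here are epiblast cells of 2 mouse single-cell RNA libraries, one of blastocysts reactivated from diapause and one of implanted embryos at E5.5. A cell with at least 1000 UMIs (unique molecular identifiers, each standing for 1 captured transcript) was taken as epiblast when a set of 7 epiblast genes (Tdgf1, Sox2, Nanog, Fgf4, Utf1, Pou3f1 and Slc7a3) had at least 3 UMIs and at least 60% of the UMIs of that set and of an endoderm and a trophoblast set together. This gave 2965 epiblast cells of the 10237 barcodes of the 2 libraries, 206 in Reactivated and 2759 in E5.5, and the series holds 14529 barcodes in 4 libraries. The same rule gave 305 endoderm and 153 trophoblast cells in Reactivated, and 3155 and 2152 in E5.5.

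All libraries came from wildtype B6C3F1/J whole embryos, whose cells were freed with TrypLE and loaded into BD Rhapsody Express microwells. Reactivated is labelled EDG9.5 plus 30 h of E2, the ovarian hormone estradiol that ends diapause, and pooled 200 to 250 flushed blastocysts. E5.5 pooled 50 embryos lifted out of their implantation sites. The other libraries, EDG7.5 and EDG9.5, hold diapause blastocysts and serve as points of reference. Each stage is 1 library, so stage, collection, embryo pool and library cannot be told apart, and no difference was tested: intervals cover counting error of UMIs only.

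The epiblast is the pluripotent tissue that makes the embryo proper. Before implantation its cells hold a naive state, kept by a network of transcription factors such as Klf4, Esrrb and Tfcp2l1. Around implantation this network is shut down, Otx2, Pou3f1 and the de novo DNA methyltransferases come on, and the cells form a polarised epithelium around a lumen. This formative state precedes gastrulation, and diapause is a natural pause of the blastocyst before that step.

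The epiblast cells summed to 2565798 UMIs in Reactivated and 24335129 in E5.5, with a median of 12528.5 and 8676 UMIs per cell. The share of mitochondrially encoded UMIs had a median of 6.35% and 5.46%. Levels are given as UMI counts per 1000000 (CPM) of these sums, with exact Poisson 95% intervals, and log2 ratios are E5.5 over Reactivated after adding 10 CPM to both. Fold differences carry exact conditional 95% intervals and are ratios of CPM with nothing added. Where a gene is given with 4 levels, they stand in the order EDG7.5, EDG9.5, Reactivated, E5.5, and a pair of levels stands in the order Reactivated, E5.5. The 2 libraries shared 8 barcodes, 1 of them epiblast in both. Marker lists for decidual stroma, immune and erythroid cells, of which no gene was measured, summed to between 0.616 and 16.1 CPM in these cells. The uterine epithelium list summed to 86.5 and 33.0 CPM, most of it Wfdc2, and the endothelium list, which shares Pecam1 with the naive list, to 49.9 and 7.64 CPM.

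The labelled cell type held up against its markers in both libraries, with 1 reservation in E5.5. Pou5f1, the pluripotency factor Oct4, was not part of the rule and had a level of 98.6 CPM (86.8 to 112) in the Reactivated cells. In the E5.5 cells it had 141 CPM (136 to 146), while the endoderm cells of these libraries had 17.4 and 4.33 CPM. Trophoblast cells are not part of this comparison. The 8 endoderm-set genes summed to 607 CPM in Reactivated and 274 CPM in E5.5 epiblast cells, of which Sparc alone gave 548 and 163, and the 10 trophoblast-set genes to 26.5 and 74.3 CPM. The reservation concerns 134 E5.5 cells whose epiblast-set share was 60 to 70%. In them H19 had 6493 CPM, Elf5, a trophoblast stem cell factor, 308 and Eomes 546, while Pou5f1 had 48.7 and Tdgf1 86.1. Utf1, a gene of the rule, differed less, with 1078 CPM in them and 1472 CPM in E5.5 cells at 95% or more. The 202 cells at 70 to 80% were intermediate, with H19 at 1173 and Elf5 at 50.02 CPM, and the 630 cells at 95% or more had H19 at 162, Elf5 at 0.378 and Pou5f1 at 143 CPM. Reactivated had 2 cells at 60 to 70%, with 14 epiblast, 5 endoderm and 4 trophoblast set UMIs. Just outside the threshold, at 50 to 60%, lay 344 E5.5 cells and 2 Reactivated cells. Values from cells at 80% or more (2423 in E5.5 and 195 in Reactivated) are therefore given beside the genes named below that they move across the 2-fold line or by over 1.5 times. The counts of gene lists are over all epiblast cells. Elf5 itself had 2.34 and 21.1 CPM over all epiblast cells and 1.63 and 3.31 CPM in these.

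**Figure D1:**
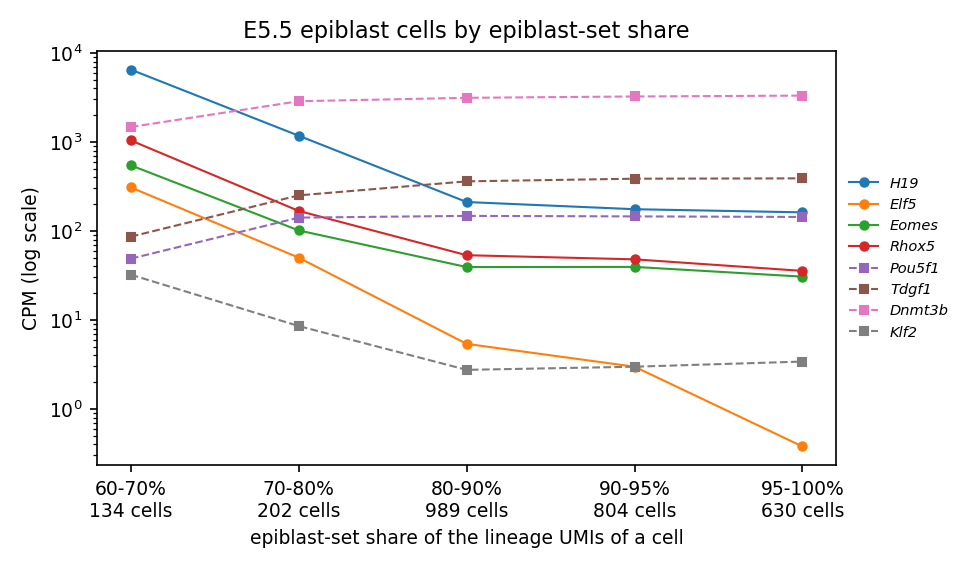
CPM (log scale) of 8 genes in E5.5 epiblast cells, grouped by the share of the lineage-set UMIs that came from the epiblast set; points are sums over the cells of each band and values under 0.1 would be drawn at 0.1. H19, Elf5, Eomes and Rhox5 (solid lines) were highest in the 134 cells at 60 to 70%, where Pou5f1, Tdgf1 and Dnmt3b (dashed) were lowest.

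Of 7963 genes with a mean of at least 10 CPM over the 2 sums, called measured here, 423 (5.31%) were at least 2-fold higher in E5.5 and 623 (7.82%) at least 2-fold lower. Past or within 2-fold refers throughout to the ratio with 10 CPM added, so a low gene can be within it at a larger ratio of CPM. At least 4-fold differences were found in 39 genes (0.49%) that were higher and 129 (1.62%) that were lower. The median log2 ratio over all measured genes was 0.12. The counts of each gene list below are to be read against the shares of 5.31% higher and 7.82% lower. With cells at 80% or more the counts were 429 and 645. The same 2 libraries also differed in the other lineages: of the 423 genes, 70 were at least 2-fold higher in endoderm cells too and 94 in trophoblast cells, and 285 in neither. Over all 7963 measured genes, 249 were higher in endoderm and 513 in trophoblast cells. Of the 623 genes, 130 were at least 2-fold lower in endoderm and 106 in trophoblast, and 442 in neither, where all measured genes gave 275 and 281.

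**Figure D2:**
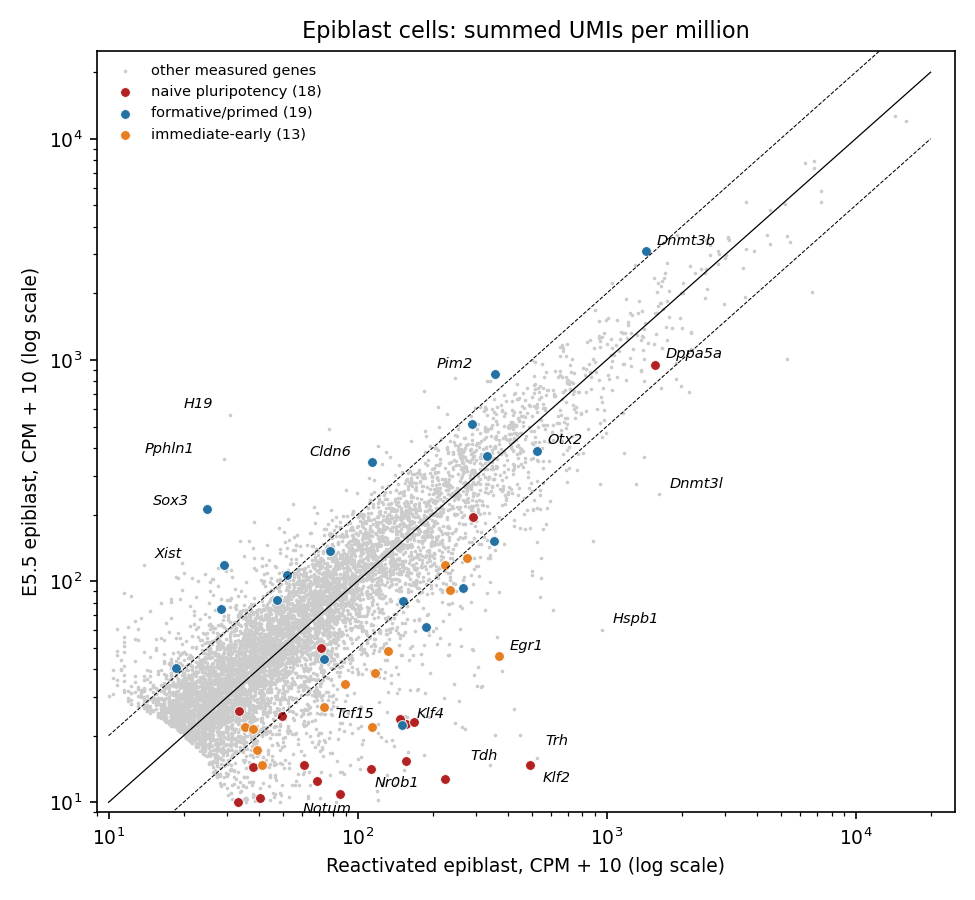
Summed CPM plus 10 in epiblast cells of Reactivated (x) and E5.5 (y), both on log scales, for the 7963 measured genes; the solid line marks equal levels and the dashed lines 2-fold differences. Of the 18 measured naive genes (red) 14 lie below the lower dashed line, 8 of the 19 measured formative genes (blue) lie above the upper one and 4 below the lower one, and 10 of the 13 measured immediate-early genes (orange) lie below the lower one.

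The 7 genes of the selection rule are given as a description, since the rule required their UMIs. Tdgf1, a Nodal co-receptor, had 2476, 3241, 1397 and 354 CPM. Sox2, the partner of Oct4, had 1363, 1795, 533 and 117 CPM. Both were highest in the diapause libraries and lowest in E5.5, as were Nanog, a naive-state homeobox factor, at 90.03 and 29 CPM in Reactivated and E5.5, and the growth factor Fgf4 at 207 and 79.3 CPM. The order was different for the other genes of the set, which were lower in both diapause libraries than in Reactivated and E5.5. Utf1, a chromatin-associated pluripotency protein, had 344, 344, 2001 and 1381 CPM. Slc7a3, a cationic amino acid transporter, had 28.5, 67, 944 and 436 CPM. Pou3f1 (Oct6), a formative POU factor, had 14.3, 17.3, 204 and 345 CPM, and was the only gene of the 7 that was higher in E5.5 than in Reactivated. The selection of E5.5 cells rested more on Utf1, Pou3f1 and Slc7a3 than that of Reactivated cells. Without these genes it kept 1492 of 2759 cells in E5.5 and 196 of 206 in Reactivated, with 436 genes higher and 644 lower. Without Nanog and Fgf4 the selection kept 2756 and 206 cells, with 423 and 623 genes.

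The naive network was lower in E5.5 almost throughout. Of 20 genes on the naive list 18 were measured, 14 were at least 2-fold lower and none was at least 2-fold higher, with a median log2 ratio of -2.25 (order-statistic interval over genes, -2.97 to -1.02) against 0.12 for all measured genes. The lowest was Klf2, a Krüppel-like factor that supports self-renewal, with 412, 496, 482 and 4.77 CPM. It was 101-fold lower (83.5 to 123), and its 116 UMIs in E5.5 came from 3.26% of the epiblast cells against 92.2% of them in Reactivated. Klf2 thus stood at 412 CPM or more in 3 of the 4 libraries and near 0 in E5.5. After thinning to 3000 UMIs per cell, 1.28% of E5.5 epiblast cells and 27.9% of E5.5 trophoblast cells had a Klf2 UMI.

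Other naive factors had already been lower in Reactivated than in diapause. Klf4 had 1723, 1908, 146 and 12.5 CPM. Tfcp2l1, a grainyhead-like factor downstream of LIF, had 973, 964, 58.5 and 2.42 CPM. Esrrb, an orphan nuclear receptor, had 585, 603, 158 and 13 CPM. In each of these 3 genes the 4 libraries lay in the same order, with both diapause libraries above Reactivated and Reactivated above E5.5. The orphan receptor Nr0b1 (Dax1) had 356, 305, 214 and 2.75 CPM, which is 77.9-fold lower (60.3 to 102) in E5.5 than in Reactivated. Fbxo15, an F-box protein gene, had 147 and 5.3 CPM in Reactivated and E5.5, the T-box factor Tbx3 103 and 4.15 CPM, Tcl1, an AKT coactivator, 75.2 and 0.904 CPM and Klf5 138 and 13.7 CPM. Fbxo15 was not particular to epiblast. After thinning its UMIs were in 34% of epiblast and 71.1% of trophoblast cells of Reactivated, and in 1.14% and 5.15% of those of E5.5. In E5.5 cells at 80% or more Klf2 had 2.99 CPM, Esrrb 2.01, Fbxo15 2.89 and Klf5 8.35, each under the level over all E5.5 epiblast cells by more than 1.5 times. Jam2, a junctional adhesion protein, had 59 UMIs in Reactivated and none in E5.5, which makes it at least 187-fold lower when 3 UMIs over the whole E5.5 sum are taken as the floor.

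The 4 measured naive-list genes within 2-fold were members of the developmental pluripotency associated (Dppa) family. Dppa5a, an RNA-binding protein gene, had 3192, 2253, 1561 and 941 CPM. Dppa4 had 282 and 185 CPM in Reactivated and E5.5, Dppa2 61.6 and 39.9 CPM and Dppa3 23.4 and 15.9 CPM. Dppa5a made up most of what was left of the list: all 20 genes summed to 3644 CPM in Reactivated and 1269 CPM in E5.5.

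Core pluripotency genes differed less. Of 15 measured genes 12 were within 2-fold, 1 was higher and 2 were lower, with a median of -0.25. The zinc finger gene Sall4 had 412 and 376 CPM, the RNA-binding regulator Lin28a 345 and 392 CPM and Rif1, a telomere and replication timing protein, 492 and 412 CPM. Lin28b, the paralog of Lin28a that also blocks let-7 maturation, had 8.35, 11, 7.79 and 72.9 CPM, which is 9.36-fold higher (6.04 to 15.4). Tdh was among the lower genes.

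Tdh encodes threonine dehydrogenase, which mouse embryonic stem cells use to feed 1-carbon metabolism. It had 250.4, 253, 438 and 10.1 CPM. The E5.5 level was 43.6-fold lower (37.9 to 50.2), and the share of cells with a Tdh UMI after thinning to 3000 UMIs per cell was 72.8% (66.2 to 78.8) among Reactivated and 2.82% (2.23 to 3.51) among E5.5 epiblast cells, beside 17.4% and 19.7% of endoderm cells. Shmt2, the mitochondrial serine hydroxymethyltransferase, was also lower, at 497 and 199 CPM, while Phgdh, the first enzyme of serine synthesis, was higher at 20.7 and 72.1 CPM. Of 13 measured serine and 1-carbon genes these 3 were the ones past 2-fold.

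Formative and primed genes differed in both directions. Of 19 measured genes 8 were at least 2-fold higher and 4 at least 2-fold lower, with a median of 0.83 (-0.90 to 1.27). The de novo methyltransferase genes Dnmt3b and Dnmt3a had 119, 96.2, 1434 and 3105 CPM and 65, 65, 277 and 501 CPM, and Dnmt3a was within 2-fold. The kinase Pim2 had 34.1, 23.3, 348 and 852 CPM. Sox3, a SoxB1 factor of the epiblast and neural plate, had 7.3, 5.52, 14.8 and 202 CPM, which is 13.6-fold higher (9.93 to 19.3), and UMIs for it were found in 3.4% (1.38 to 6.88) of thinned Reactivated cells and 40.9% (39.1 to 42.8) of thinned E5.5 cells, against 9.15% of E5.5 endoderm cells. Sall2 had 3.48, 5.91, 19 and 109 CPM. Fgf5, the classic marker of the post-implantation epiblast, had 0.696, 1.58, 67.4 and 127 CPM. All of these stood in the order of diapause, Reactivated and E5.5, but the main step differed: for Dnmt3b and Fgf5 it lay between EDG9.5 and Reactivated, and for Sox3 and Sall2 between Reactivated and E5.5.

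The 4 lower formative genes had a different course. Tcf15, a basic helix-loop-helix factor of cells leaving the naive state, had 19.8, 12.2, 141 and 12.5 CPM. Lef1, a nuclear effector of WNT signalling, had 4.17, 8.28, 256 and 83.1 CPM, and Etv5, an ETS factor downstream of FGF, had 185, 153, 342 and 142 CPM. All 3 were highest in Reactivated. Grhl2, a regulator of epithelial genes, had 159, 198, 179 and 51.8 CPM. Otx2, which directs the naive to formative step, was within 2-fold at 514 and 379 CPM, as were Etv4 at 63.1 and 34.4 CPM and Foxd3 at 143 and 71.7 CPM.

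**Figure D3:**
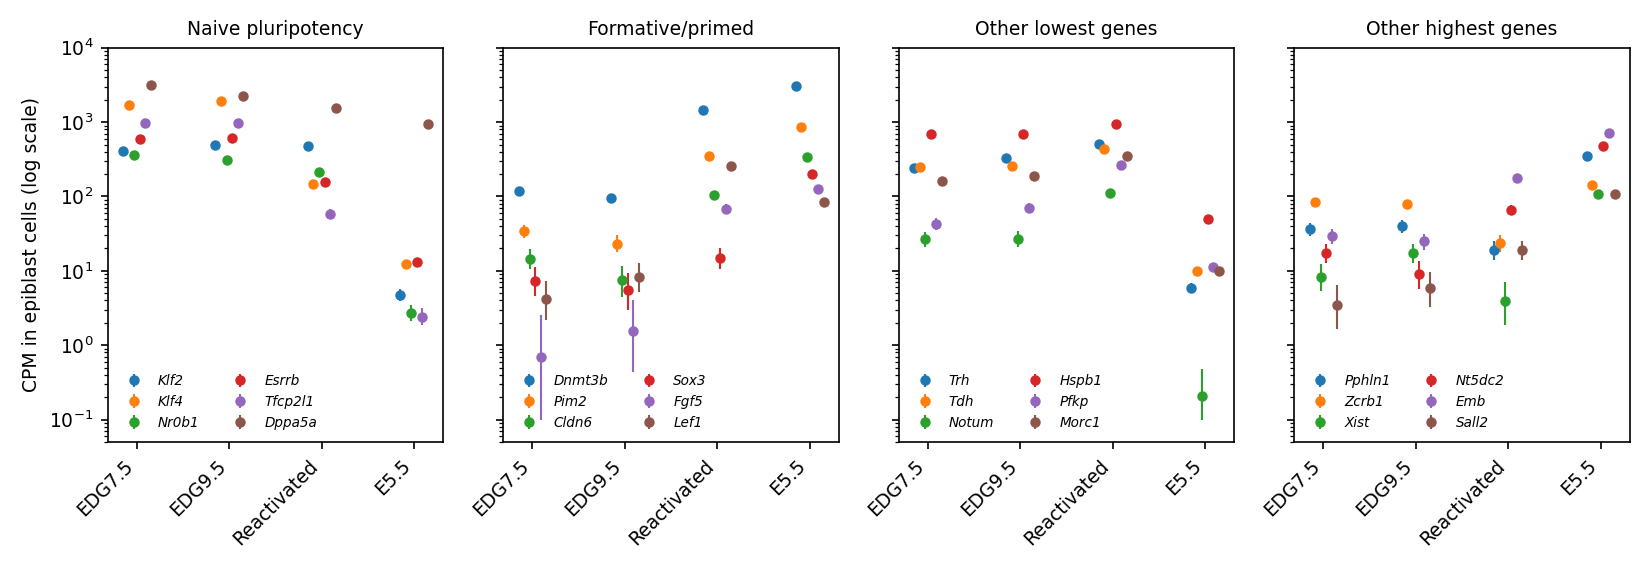
CPM (log scale) of 24 genes in the epiblast cells of the 4 libraries; points are sums over the epiblast cells of 1 library, bars are exact Poisson 95% intervals cut at 0.1 CPM, and points are set side by side for reading. Klf2 stands at 412 to 496 CPM in 3 libraries and at 4.77 CPM in E5.5, while Dnmt3b goes from 96.2 CPM in EDG9.5 to 3105 CPM in E5.5.

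The naive and formative sums were next compared cell by cell. Each cell was thinned to 3000 UMIs, which kept all 206 Reactivated cells and 2731 E5.5 cells and left out 28 shallower E5.5 cells. The naive list had a median of 10 UMIs per Reactivated cell (quartiles 7 and 14) and 4 per E5.5 cell (2 and 5). The formative list had a median of 12 (9 and 15.8) and 20 (16 and 24). In Reactivated 73 cells (35.4%) had more naive than formative UMIs and 120 (58.3%) more formative than naive. In E5.5 these were 31 cells (1.14%) and 2689 cells (98.5%). The mean Reactivated cell had 11.3 naive and 12.6 formative UMIs, with standard deviations over cells of 6.35 and 5.14. The naive count ran from 3 to 51 UMIs per Reactivated cell. Counting error can put a cell with near counts in either order. Whether the Reactivated cells form separate groups was not tested. UMIs of both lists were held by 205 of 206 Reactivated cells and by 2640 E5.5 cells (96.7%). Cells of 1 library are not replicates, and Dppa5a and Dnmt3b were the largest single genes of the summed E5.5 CPM of their lists.

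**Figure D4:**
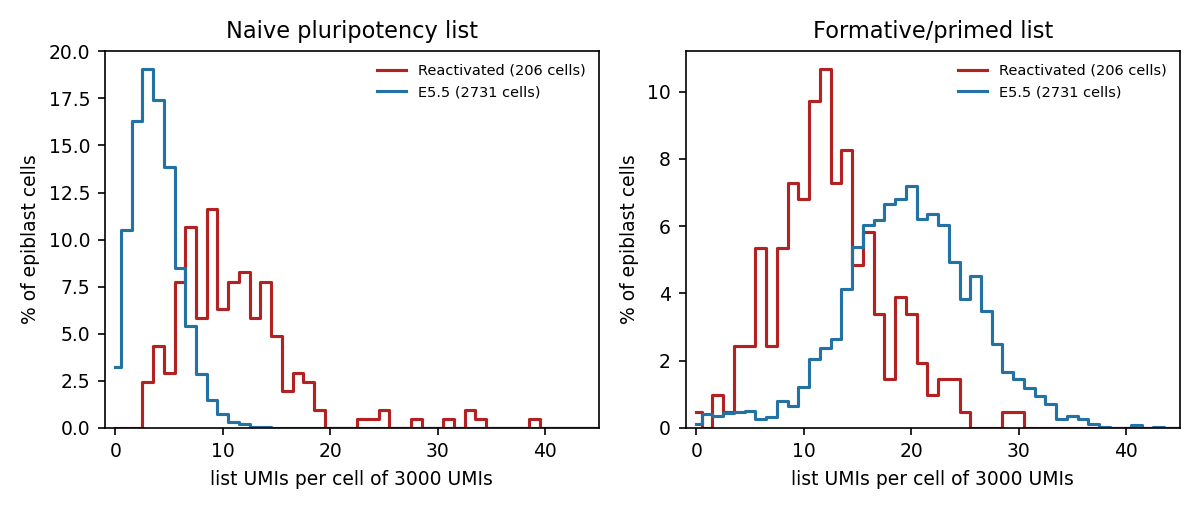
Percent of epiblast cells by the number of UMIs of the naive list (left) and the formative list (right) per cell after thinning to 3000 UMIs, for 206 Reactivated cells (red) and 2731 E5.5 cells (blue). The naive medians are 10 and 4 UMIs and the formative medians 12 and 20.

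DNA methylation enzymes split by gene. Beside Dnmt3b and Dnmt3a, their cofactor Dnmt3l, which has no catalytic activity of its own, had 846, 804, 1615 and 238 CPM and was 6.8-fold lower (6.53 to 7.07). It was also lower in E5.5 endoderm cells, with a log2 ratio of -2.37 there and -2.71 in epiblast. The maintenance genes Dnmt1 and Uhrf1 were within 2-fold, at 139.5 and 162 CPM and 265 and 304 CPM, and the oxidising enzyme Tet1 had 128 and 165 CPM. Zfp57, which protects imprints from demethylation, had 459, 473, 173 and 14.8 CPM. The other lower genes of the germline list were Tex19.1 at 353 and 45.8 CPM and the ribosomal protein gene Rpl10l at 97.8 and 30.1 CPM, whose reads may be shared with Rpl10. Ddx4 (Vasa), a germ cell helicase, was higher at 3.9 and 22.8 CPM, and the other 4 of the 8 measured germline genes were within 2-fold.

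Nodal signalling keeps the epiblast pluripotent and patterns it. The ligand gene Nodal had 154, 149, 47.5 and 49.6 CPM, level between the 2 stages compared. Gdf3, a related ligand, had 194, 199.8, 182 and 49.2 CPM, and the proprotein convertase Pcsk6 (Pace4), which matures Nodal, had 112, 72.5, 90.4 and 11.6 CPM (7.47 in E5.5 cells at 80% or more). Lefty2, a Nodal target and inhibitor, had 509.5, 534, 83 and 4.81 CPM, whereas its neighbour in function Lefty1 had 28.5 and 38.5 CPM. The receptor and effector genes Smad2, Smad4, Acvr1b and Acvr2b were all within 2-fold. In the BMP list none of 7 measured genes passed 2-fold. Bmp4 had 31.6 and 12.9 CPM there, and 31.7 and 6.53 in cells at 80% or more, where it was past 2-fold lower.

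ERK feedback genes past 2-fold were lower, while most were within it. Of 11 measured ERK feedback genes 3 were at least 2-fold lower and none higher, with a median of -0.39. Spry2, a receptor tyrosine kinase feedback inhibitor, had 217 and 86.6 CPM, and Dusp6, the ERK phosphatase, was within 2-fold at 157 and 118 CPM. Etv5, given above with the formative genes, was also among the 3. Some genes within 2-fold stood higher in E5.5, such as Dusp4 at 58.9 and 75.4 CPM and Spred2 at 35.9 and 56.3 CPM. Egr1, an immediate target of ERK, had 489.7, 849, 359.7 and 36 CPM. Egr1 is also an immediate-early gene, and the handling of the embryos differed between the 2 libraries. The part of that in its level was not tested.

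The WNT list held genes past 2-fold in both directions, 2 higher and 3 lower of 14, beside 5.31% and 7.82% of all measured genes. Notum, a secreted enzyme that removes the lipid from WNT ligands, had 26.4, 27.2, 111 and 0.205 CPM. Its 5 UMIs in E5.5 make a level 539-fold lower (228 to 1672), and after thinning 25.2% (19.5 to 31.7) of Reactivated epiblast cells held a Notum UMI while no Reactivated endoderm or trophoblast cell did. The target Axin2 had 36.6 and 14.9 CPM and was within 2-fold, and the target and receptor Lgr5 had 31.2 and 10.4 CPM, past 2-fold lower here and just within it in cells at 80% or more (log2 -1.02 and -0.99). The higher genes were Ctnnb1 (beta-catenin) at 122 and 259 CPM, which was also higher in endoderm and trophoblast cells (log2 1.48 and 1.44), and the receptor Fzd2 at 18.3 and 65 CPM.

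**Figure D5:**
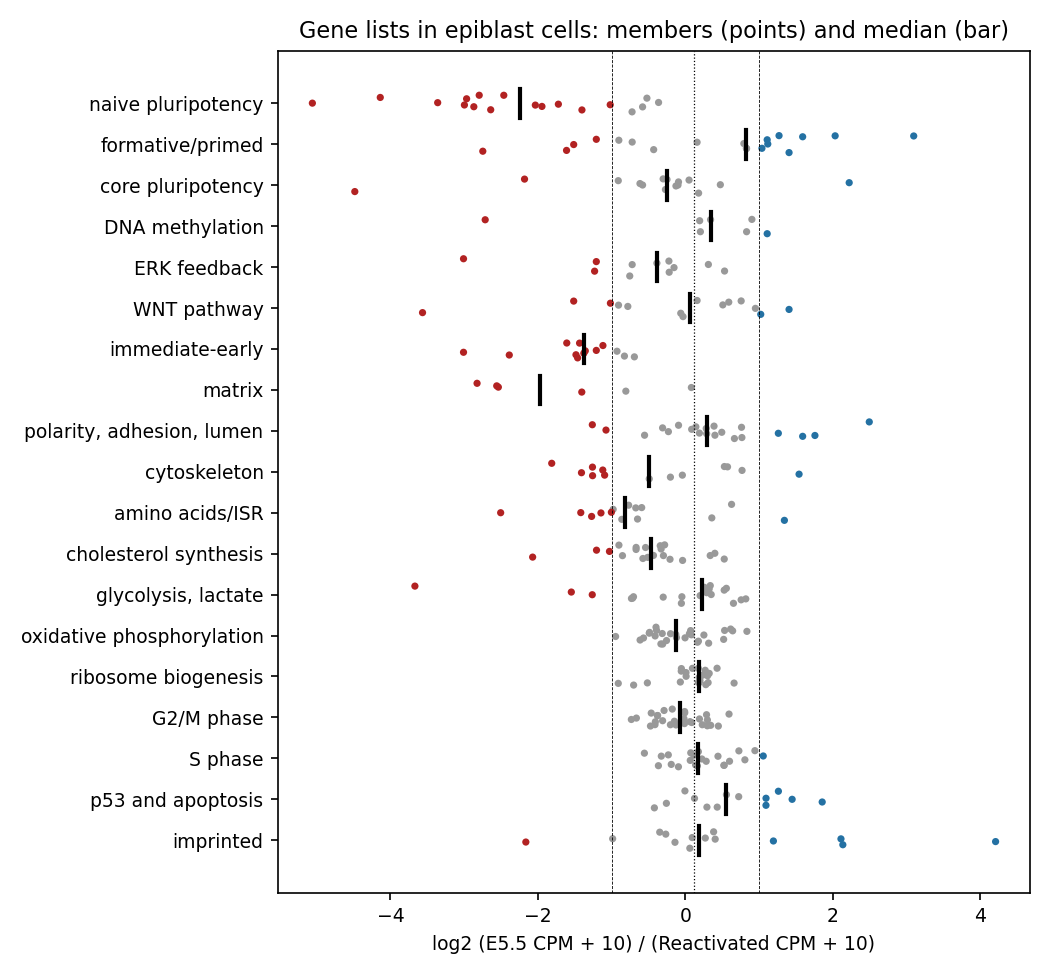
Log2 ratio of E5.5 over Reactivated epiblast (10 CPM added) for each measured member of 19 gene lists (points, spread vertically for reading; red at least 2-fold lower, blue at least 2-fold higher) with the list median (bar). The dotted line is the median of all measured genes, 0.12, and the dashed lines are 2-fold. The naive, matrix and immediate-early medians lie at -2.25, -1.97 and -1.38, and those of the oxidative phosphorylation, ribosome biogenesis, G2/M and S phase lists between -0.13 and 0.18.

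Most of the 15 genes with the lowest ratios stood outside the pluripotency lists. Trh, the thyrotropin-releasing hormone precursor, had 239, 329, 516 and 5.92 CPM and was 87.1-fold lower (73.3 to 104). After thinning, 65% (58.1 to 71.5) of Reactivated and 1.9% (1.43 to 2.49) of E5.5 epiblast cells had a Trh UMI, against 0.328% of Reactivated endoderm cells and none of its trophoblast cells. Sept1 (septin 1) had 477, 449, 329 and 4.73 CPM and Morc1, which represses transposons in the germ line, 161, 186, 347 and 10.1 CPM. The heat shock protein gene Hspb1 had 689.7, 695, 953 and 50.3 CPM. Upp1, uridine phosphorylase, had 161, 162, 415 and 16.3 CPM. Pdgfa, the ligand of the receptor that marks primitive endoderm, had 423, 426, 252 and 12 CPM. The remaining ones were Lgals3 (galectin 3) at 174 and 6.41 CPM (2.1 in E5.5 cells at 80% or more), the surface antigen gene Gpa33 at 132 and 2.84 CPM, the lysosomal mannosidase Manba at 143 and 3.94 CPM, Hmces, which shields abasic sites in DNA, at 237 and 12.9 CPM, and Klf2, Tdh, Nr0b1, Notum and Pfkp, which are described in their lists. After thinning, Lgals3 UMIs were in 34.5% of epiblast and 96.7% of trophoblast cells of Reactivated, and in 1.87% and 26.4% of those of E5.5.

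The 15 genes with the highest ratios were led by H19, Pphln1, Xist and Sox3. Pphln1 encodes periphilin, a subunit of the HUSH silencing complex, and had 36.2, 40.2, 19 and 345 CPM, which is 18.1-fold higher (13.7 to 24.4). After thinning 6.8% (3.77 to 11.1) of Reactivated and 63.3% (61.5 to 65.2) of E5.5 epiblast cells had a Pphln1 UMI, against 13.8% and 21.2% of endoderm cells. Zcrb1, an RNA-binding protein of the minor spliceosome, had 84.9, 79.2, 23.8 and 142 CPM, which is 5.96-fold higher (4.63 to 7.8). In Zcrb1 it was the Reactivated epiblast that stood low: 8.74% of its thinned cells had a UMI, against 36.4% of Reactivated endoderm, 54.6% of Reactivated trophoblast and 33.2% of E5.5 epiblast cells. The log2 ratios of Zcrb1 in endoderm and trophoblast were -0.29 and -0.20, against 2.17 in epiblast.

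Pphln1 and Zcrb1 are neighbours that start head to head. In GRCm38 (mm10) with the GENCODE M21 annotation, Zcrb1 lies on the minus strand of chr15:93386097-93398334 and Pphln1 on the plus strand of chr15:93398350-93491510, so that 15 bases separate the first exons. The stretch chr15:93398328-93398356 (plus strand, RefSeq sequence of GRCm38.p6) is shown because both genes are among the 15 highest, with the 15 bases between the gene starts in capitals and 7 bases of each first exon in lower case.
Zcrb1 to Pphln1: gggcgacGTCACCGCGCGCGCCggaagtg

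Xist, the noncoding RNA that coats the inactive X chromosome, had 8.35, 17.3, 3.9 and 109 CPM. It lies on the minus strand of chrX:103460366-103483254 and is overlapped by its antisense gene Tsix (plus strand, chrX:103431517-103484957). As the strandedness of the counting is not given in the sources used here, reads of the 2 cannot be told apart where they overlap. Under its own name Tsix had 6.63 and 2.26 CPM. Xist had 10 UMIs in Reactivated epiblast cells. After thinning 1 of 206 of them (0.485%, exact interval 0.0123 to 2.67) and 579 E5.5 cells (21.2%, 19.7 to 22.8) had a Xist UMI. In the other Reactivated lineages 14.1% of endoderm and 12.5% of trophoblast cells had one, so the low share was that of the epiblast. The pools hold embryos of unstated sex.

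H19, an imprinted noncoding RNA expressed from the maternal allele, had 113, 11.8, 20.7 and 556 CPM. In cells at 80% or more it had 15.9 and 186 CPM, so the E5.5 level was lower in those cells, and the log2 ratio went from 4.21 to 2.92. The imprinted growth factor gene Igf2 had 2.73 and 44.9 CPM, and 2.85 and 15.6 CPM in cells at 80% or more, where it was no longer past 2-fold (log2 0.99). The adaptor gene Grb10 was higher at 14.4 and 97.2 CPM, and so was the noncoding Meg3 at 137 and 327 CPM. Peg10, a retrotransposon-derived gene of the placenta, was lower at 136 and 22.6 CPM, and at 137 and 11.2 CPM in cells at 80% or more. In all, 4 of 14 measured imprinted genes were at least 2-fold higher and 1 lower, with a median of 0.18. Slc38a4 was within 2-fold over all epiblast cells (log2 -0.99) and past 2-fold lower in cells at 80% or more (log2 -1.32). In endoderm cells E5.5 was higher than Reactivated as well for H19, Igf2 and Grb10 (log2 4.01, 2.42 and 4.14).

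The rest of the 15 highest were single genes of varied function. Nt5dc2, a nucleotidase-like gene, had 17.4, 9.07, 66.6 and 476 CPM, and Emb (embigin), a chaperone of lactate transporters, 29.2, 24.8, 175 and 716 CPM. Emb was also higher in endoderm and trophoblast cells, with log2 ratios of 1.85 and 3.08 against 1.97 in epiblast. Sema6a, a semaphorin, had 9.74 and 110.5 CPM in Reactivated and E5.5, the secreted protein gene Cthrc1 26.5 and 141 CPM, and the splicing regulator Ptbp2 19.5 and 101 CPM. Rragd, a RAG GTPase that recruits mTORC1 to lysosomes, had 318, 325, 45.2 and 213 CPM and so was lowest in Reactivated. Klhdc2, a ubiquitin ligase substrate receptor, had 17.5 and 105 CPM, the transcription factor Gtf2i 24.9 and 120.1 CPM and the G protein subunit Gng3 28.1 and 131 CPM. Of these 30 highest and lowest genes 15 overlap an annotated gene on the other strand. The share over all measured genes was not counted, so whether this is unusual cannot be said.

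Of 21 measured genes for polarity, adhesion and lumen formation 4 were at least 2-fold higher and 2 lower, with a median of 0.29. The tight junction genes Cldn7 and Cldn6 had 41.7, 31.5, 8.57 and 94.6 CPM and 14.6, 7.49, 104 and 334 CPM. The junction scaffold Tjp1 (ZO-1) had 33.1 and 136 CPM in Reactivated and E5.5. The lower genes were Cldn4, another claudin, at 76.8 and 31.1 CPM and the integrin gene Itgav at 61.6 and 19.8 CPM, both named after their values were seen. The adhesion molecules Cdh1 (E-cadherin) and Epcam were even, at 218 and 267 CPM and 755 and 707 CPM, and Ezr (ezrin), an apical linker to actin, had 346 and 396 CPM. The log2 ratio of Cldn7 was 2.49 in epiblast, 1.22 in endoderm and -1.53 in trophoblast.

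Genes of the matrix list were mostly lower. Of 6 measured genes 4 were at least 2-fold lower and none higher, with a median of -1.97. The list leaves out Sparc, Col4a1 and Lamb1, genes of the endoderm set whose UMIs the selection rule limited. In epiblast cells Sparc was lower at 548 and 163 CPM and Col4a1 was within 2-fold at 24.2 and 27 CPM. Lamb1, another laminin chain gene, was higher at 13.3 and 57.5 CPM (log2 1.54). Spp1 (osteopontin) had 1221, 1184, 233 and 24.4 CPM, and Fn1 (fibronectin) 738, 645, 277 and 39.6 CPM. Nid1, a linker of basement membranes, had 376, 380.4, 111 and 10.6 CPM (4.29 in E5.5 cells at 80% or more), and the laminin chain gene Lamc1 352, 277, 141 and 47.2 CPM. Spp1, Fn1, Nid1 and Lamc1 were all highest in the diapause libraries. In endoderm cells, which make much of the basement membrane around the epiblast, Nid1 had 108 CPM in Reactivated and 273 in E5.5, and Fn1 7.24 and 39.2, so both were higher in E5.5 there. The endoderm-set sum in epiblast cells was also lower in E5.5 (607 and 274 CPM). In Reactivated endoderm cells Spp1 had 23 CPM, against 233 in Reactivated epiblast cells.

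Of 13 measured cytoskeletal genes 6 were lower and 1 was higher. The intermediate filament gene Vim was lower at 167 and 56.6 CPM and Krt18 was the higher gene at 14.4 and 61.1 CPM. The tubulin genes Tuba1a and Tuba1b were both lower, at 497 and 202 CPM and 797 and 368 CPM, but they are near-identical copies whose reads may have been split. Actb (beta-actin) had 7282 and 5182 CPM. Among the 10 measured YAP and TEAD genes, the target Ctgf had 394, 318, 152 and 22.3 CPM, and Tead2 81, 67, 120.0 and 374 CPM. Tead4, the TEAD factor of trophoblast, had 23.8 and 7.07 CPM, and 22.8 and 1.82 in cells at 80% or more, which is past 2-fold lower.

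Immediate-early genes, which respond within minutes to growth factors and to handling of the tissue, were lower in E5.5. Of 13 measured genes 10 were at least 2-fold lower and none higher, with a median of -1.38 (-1.61 to -0.93). Fos, an AP-1 subunit, had 602, 1026, 108 and 28.6 CPM, Junb 194, 276, 104 and 11.8 CPM and the RNA-decay factor Zfp36 157, 263, 123 and 38.2 CPM. In cells at 80% or more Fos had 109 and 16.1 CPM. The list median was -0.31 in endoderm cells and 0.63 in trophoblast cells of the same libraries. Per thinned cell the list had a median of 4 UMIs in Reactivated and 1 in E5.5. Reactivated embryos were flushed and E5.5 embryos dissected out, and the part of that in the result was not tested. The heat-inducible Hspa1b, a near-identical copy of Hspa1a with which it may share reads, had a log2 ratio of -1.21, and of -0.95 in cells at 80% or more, where it was within 2-fold.

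Few genes of energy metabolism were past 2-fold. Of 20 measured glycolysis and lactate genes 3 were lower, against 7.82% of all measured genes, and none was higher, with a median of 0.23. Pfkp, the platelet isoform of phosphofructokinase, had 43.1, 70.6, 261 and 11.3 CPM and was 23-fold lower (19.98 to 26.6). The muscle isoform Pfkm had 65.9 and 21.6 CPM, and the liver isoform Pfkl was within 2-fold at 209.7 and 202 CPM. The glucose transporter Slc2a3 had 958, 1191, 297 and 95.2 CPM, and Slc2a1 291 and 234 CPM. Lactate dehydrogenase Ldha had 1251 and 1583 CPM and Gapdh 1772 and 2036 CPM. None of 28 measured nuclear genes of oxidative phosphorylation passed 2-fold (median -0.13), with Cox6c at 1370.3 and 892 CPM and Cycs, cytochrome c, at 104 and 193 CPM.

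Cholesterol synthesis genes had a somewhat lower median of -0.47 (-0.67 to -0.28). Of 20 measured genes 3 were past 2-fold lower, where all measured genes gave 7.82%, and none was higher. Ebp, a sterol isomerase, had 77.9 and 10.9 CPM and Nsdhl, a sterol dehydrogenase, 81.5 and 29.7 CPM. The upstream synthase Hmgcs1 had 254 and 185 CPM and the epoxidase Sqle 260.0 and 171 CPM. The list median was -0.92 in endoderm and 0.29 in trophoblast cells. Of 20 measured lysosomal genes 3 were lower, against 7.82% of all measured genes, and none was higher. Among the lower ones were the cholesterol carrier Npc2 at 256 and 90.7 CPM and the tetraspanin Cd63 at 346 and 128 CPM.

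Amino acid transporters and genes of the integrated stress response, in which Atf4 raises amino acid uptake and synthesis, were lower in 5 of 14 measured genes and higher in 1, with a median of -0.82 (-1.27 to 0.36). The cationic transporter Slc7a1 had 74.1, 74.1, 94.3 and 8.38 CPM and was 11.3-fold lower (9.3 to 13.6), beside the lower Slc7a3 of the selection rule. The neutral transporter Slc38a2 had 531 and 235 CPM, and its relative Slc38a1 was the higher gene at 55 and 155 CPM. Asns, asparagine synthetase, had 1058, 1049.6, 276 and 97 CPM, and Chac1, which degrades glutathione, 20.3 and 5.1 CPM. Atf4 itself was within 2-fold at 394 and 258 CPM, and its relative Atf5 had 30.01 and 6.57 CPM. Slc3a2 was within 2-fold (log2 -0.98), and past 2-fold lower in cells at 80% or more (log2 -1.02).

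The C/EBP-ATF response element TGATGNAA, the type of sequence that Atf4 dimers bind, was searched on both strands in the 250 bases before each RefSeq gene start. It was found in 2 of the 11 measured list genes with a sequence, Asns and Chac1, and in 3.45% of all 32851 promoter windows. Both are shown as 30 bases with the match in capitals, read along the strand of the gene from the RefSeq promoter table of GRCm38.p6, because both genes are among the 5 lower ones. The Asns stretch (chr6:7693214-7693243, minus strand) ends its match 15 bases before the RefSeq start and lies in a first exon of GENCODE M21. The Chac1 stretch (chr2:119351038-119351067, plus strand) is upstream of the gene, with the match 185 bases before the start and on the other strand.
Asns: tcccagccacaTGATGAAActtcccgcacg
Chac1: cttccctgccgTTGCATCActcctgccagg
A match describes letters in the window and was not tied to binding here.

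Most genes of growth and division were within 2-fold. None of 28 measured G2/M genes passed 2-fold (median -0.07), with Top2a at 707 and 871 CPM and Ube2c at 780.3 and 563 CPM. The thinned G2/M sum had a median of 16 UMIs per cell in both libraries. Of 22 measured S phase genes 1 was higher, the histone mRNA binder Slbp at 69 and 154 CPM (list median 0.17). None of 22 measured ribosome biogenesis genes passed 2-fold (median 0.18), with nucleolin (Ncl) at 3056 and 3590.2 CPM and Npm1 at 6239 and 7727 CPM, and the growth regulators Mycn and Myc, also within 2-fold, at 229.6 and 117 CPM and 125 and 72.8 CPM. Of 13 measured G1 cyclin and CDK inhibitor genes 3 were lower and none higher, with a median of -0.42. Among them the CDK inhibitor gene Cdkn1a (p21) was lower at 58.9 and 19 CPM, and Cdk2 at 264 and 117 CPM. Of 79 measured ribosomal protein genes 3 were higher and 2 lower, the lower pair being Rpl10l and Rpl39l, whose reads may be shared with Rpl10 and Rpl39.

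On the list of p53 and apoptosis genes 5 of 13 measured were higher and none lower, with a median of 0.56 (-0.01 to 1.26). Ccng1 (cyclin G1), a p53 target, had 91.1, 107, 38.2 and 164 CPM and was 4.3-fold higher (3.52 to 5.31). The BH3-only gene Pmaip1 (Noxa) had 65.9 and 172 CPM, Bcl2l11 (Bim) 23.4 and 61.2 CPM and the effector Bak1 35.5 and 87 CPM. The survival gene Mcl1 and the effector Bax were even, at 337 and 368 CPM and 337 and 336 CPM. Trp53 had 444 and 329 CPM. The p53 target Cdkn1a, which stood on the cyclin list and not on this one, was lower, with a log2 ratio of -1.24.

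Of 16 measured chromatin protein genes 1 was higher, 4 were lower and 11 were within 2-fold. Hmga1, an architectural protein gene, was the higher one with 41.4, 43, 178 and 442 CPM. The variant histone genes H2afy (macroH2A1) and H2afx were lower, with 320.3, 305, 133 and 31 CPM and with 246, 179.7, 583 and 221 CPM, as were Hmgb3 at 159 and 56.7 CPM and the linker histone H1fx at 108 and 44.8 CPM. Among early embryo genes 3 of 4 measured were lower: Trap1a, an X-linked tumour antigen gene, had 288, 412, 599 and 63.7 CPM (and 40.7 CPM in E5.5 cells at 80% or more), the oocyte and embryo gene Ooep 331, 252, 283 and 27.7 CPM, and Zp3 0.348, 0.788, 23.8 and 2.38 CPM. Primitive streak genes were low in both libraries: of 14 on that list 13 had a mean under 10 CPM, and Eomes was measured at 65.9 and 65.8 CPM, and in cells at 80% or more at 67.5 and 37.1 CPM.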

How the data were processed

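The deposited tables hold whole-number counts of UMIs per gene and cell, 1 table per library, which the authors made with UMI-tools 1.0.1, STAR 2.7.1a and featureCounts 1.6.4 of Subread on build mm10, per the submitters' processing notes. For the annotation, the strandedness and the choice of barcodes, nothing is stated, so they count as not given in the sources used here. For this work the counts were summed over cells per library and lineage (Python 3.11.15, pandas 2.3.3, numpy 2.4.6) and divided by the total of those cells, with exact intervals from scipy 1.17.1. The 2 libraries hold 9270833 and 87507141 UMIs, so the Reactivated sums are the less precise. Each stage is 1 library, so no test was made and genes were compared by size alone, with 2-fold after adding 10 CPM as the line.

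Doublets were looked for with Scrublet (scanpy 1.11.5), which marked 279 of 9560 barcodes in E5.5 and 1 of 677 in Reactivated, and were kept except in an alternative. Scaling by TMM (edgeR 4.0.16, R 4.3.3) was another, and the scripts were tested on simulated data. Named genes are the 7 of the selection, the 15 highest and 15 lowest log2 ratios of genes that reached 50 UMIs over both sums and 100 CPM in either (haemoglobin, predicted, ribosomal protein and mitochondrial genes and the lineage sets were not eligible), in each list the 4 with the highest mean CPM and the 2 with the largest ratio in size, and any member of a list of at most 20 genes. The cells and gene lists were chosen with earlier results of these data known. Of 25437 gene names in the files 23827 matched a symbol of GRCm38.p6 or GENCODE M21.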

Additional observations from a re-analysis of the deposited data

Results flagged for a closer look

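In 17 named genes with at least a 2-fold difference in epiblast cells, endoderm or trophoblast cells of the same libraries differed at least 2-fold the opposite way. None of these differences between lineages was tested, since each stage is 1 library. All values are log2 ratios of E5.5 over Reactivated with 10 CPM added.

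Among genes lower in E5.5 epiblast, trophoblast cells had higher levels of Hspb1 (1.35 there and -4.0 in epiblast), Upp1 (1.76 and -4.02) and Pfkp (1.54 and -3.67). The same held for the transporter Slc38a2 (1.17 and -1.14) and the vascular genes Pecam1 (3.07 and -1.40) and Kdr (1.0 and -1.60). Endoderm cells had higher levels of the lipid and iron carriers Apoe (1.19 there and -2.24 in epiblast) and Trf (1.94 and -1.86), of the matrix genes Nid1 (1.26 and -2.56) and Fn1 (1.51 and -2.54), and of the fatty acid oxidation gene Acaa2 (1.84 and -1.47). Peg10 (4.27 and -2.16) and Trap1a (1.11 and -3.05) were the others of this kind.

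Among genes higher in E5.5 epiblast, trophoblast cells had lower levels of Rragd (-1.78 there and 2.02 in epiblast), Krt18 (-1.60 and 1.54) and Cldn7 (-1.53 and 2.49). Dcn, a decidual stroma marker with 0.779 and 11.8 CPM in epiblast cells and so under the minimum for measured genes, had -1.37 in endoderm and 1.01 in epiblast.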

How the results depend on the processing

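Counting error is the one error these data give, and the 206 Reactivated cells set it. The 17 settings were tried on 246 named genes, without those named only as list members or as endoderm or trophoblast set genes. None of the 246 that was past 2-fold reversed: of 1751 values for 103 such genes 1710 stayed past 2-fold and 41 did not. Hspa1a and Hspa1b, past 2-fold lower, were outside this check. Their log2 ratios went from -1.06 and -1.21 to 0.08 each in cells at 95% or more. Over the 246 genes 586 of 4182 values lay outside the counting interval of the reported ratio. Of 527 list medians 521 lay within the interval over genes of the reported median. Of 34 counts of higher or lower genes 28 lay within 1.5 times the reported 423 and 623. With 1 CPM added 829 genes were higher, with 50 CPM added 76 were higher and 214 lower, and with a mean of at least 50 CPM, which leaves fewer genes, 158 were higher and 314 lower. The higher share of these calls was 26.2% with 50 CPM added, against 40.4% as reported. With cells at 95% or more, a setting chosen after the data were seen that keeps 30 Reactivated cells, 636 were higher. The naive median was -3.48 with 1 CPM added and -0.96 with 50. The immediate-early median was -1.66 and -0.80 under the same settings and -1.69 in cells at 95% or more, where the glycolysis median was 0.42. The cause of the 3 moves in cells at 95% or more was not tested. No paired analysis was possible because each stage is 1 library, and for the same reason no replicate could be left out.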

Other observations

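Of 15 measured chaperone genes Hspb1 alone was past 2-fold, and the list median was 0.34. The heat-inducible Hspa1a and Hspa1b were not on this list and were both past 2-fold lower (log2 -1.06 and -1.21). Hspa1a, at 12.9 and 0.986 CPM, was under the minimum for measured genes. In cells at 80% or more both were within 2-fold (log2 -0.55 and -0.95). Of 10 measured fatty acid oxidation genes 1 was lower, Acaa2, the last thiolase of the pathway, at 20.2, 14.6, 46 and 10.3 CPM. Among 10 measured hypoxia genes 1 was lower, the stress-responsive Ndrg1, at 71.6, 59.5, 85.4 and 10.6 CPM, and at 3.5 CPM in E5.5 cells at 80% or more. The counts of lower fatty acid oxidation and hypoxia genes were near the 7.82% of all measured genes. In cells at 80% or more the fatty acid oxidation gene Acadm and the hypoxia gene Ankrd37 were past 2-fold lower too. Their log2 ratios were -1.03 and -1.05 there, against -0.998 and -0.94 over all epiblast cells. None of the 8 measured mitochondrially encoded genes passed 2-fold, with a median of -0.12. The third lower gene of the G1 list was the cyclin Ccnd2, at 0, 1.18, 22.2 and 5.01 CPM.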
